A study of Zea mays with 6 samples.

Results

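The genes described are an1, d3 and CPPS2, 3 maize genes of diterpenoid synthesis, measured by 1 Affymetrix probe set each among the 17621 probe sets tested. They were taken by probe set, which the platform annotation pairs with the gene IDs 542253 (an1), 542580 (d3) and 542165 (CPPS2), with no requirement on brightness, and that annotation gives 1 probe set for each. The RNA came from mesocotyls, the stem segment below the coleoptile that carries the shoot to the soil surface, of the inbred line 3681-4. The plants had been sown 20 cm deep, kept dark and harvested on day 10. Control plants, plants given the gibberellin GA3 and plants given UCZ, described in the series as an inhibitor of gibberellin synthesis, had 2 arrays each, so that the number of arrays limits the precision. All 3 groups share the line, the depth, the darkness and the age, while no source used here gives the doses, the solvent or the number of plants per array.

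Gibberellins are diterpenoid hormones that drive stem elongation. Their synthesis starts in the plastid, where an ent-copalyl diphosphate synthase folds geranylgeranyl diphosphate and an ent-kaurene synthase completes the ring system. Cytochromes P450 then oxidize ent-kaurene and ent-kaurenoic acid, and soluble dioxygenases make the active hormones, whose presence often lowers the transcripts of the late dioxygenases. The an1 gene (anther ear) encodes the ent-copalyl diphosphate synthase of this hormone route, and its mutants are dwarfs. The d3 gene (dwarf3, listed as LOC542580 with the synonym CYP88A1) encodes the P450 that acts on ent-kaurenoic acid. CPPS2, also called an2, makes the same intermediate as an1 but feeds the kauralexins, antifungal diterpenoids that maize forms after attack.

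**Figure D1:**
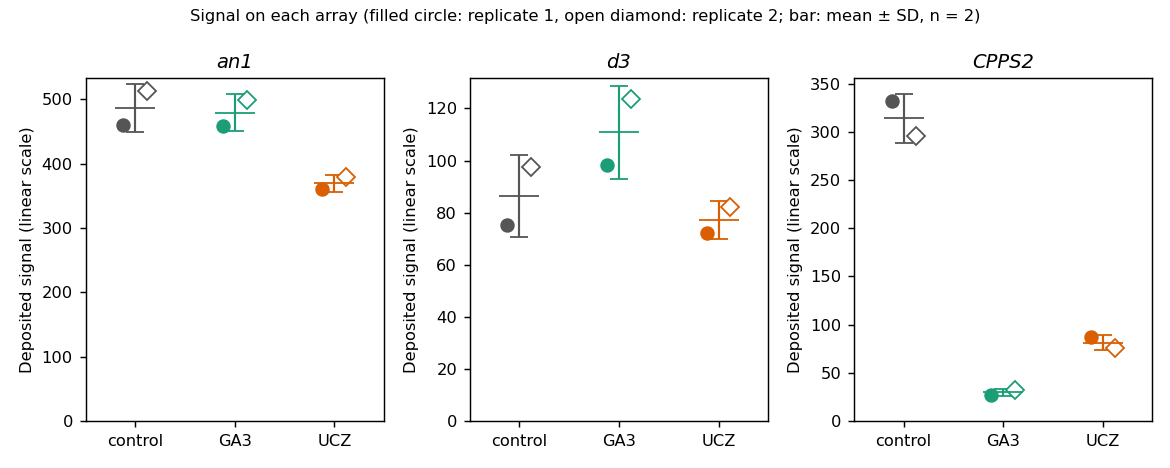
Deposited signal (linear scale, vertical axes from 0) of an1, d3 and CPPS2 on each array, by group, with the mean ± SD of 2 arrays. CPPS2 lay at 295.8 and 332.4 in control and at 32.4 or below in GA3, whereas an1 stayed between 360.3 and 513 in all groups.

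The values are the authors' MAS5 signals on a linear scale, in which each array had been brought to a common trimmed mean of 500.1 or 500.2. Changes are differences of log2(signal + 16), which understates the change of dim genes, and were tested with limma on all 17621 probe sets with Benjamini-Hochberg adjustment, at a threshold of 0.05. The array also carries 66 reporter probe sets for foreign genes, of which 1 was bright on every array (7700 or more). Of the others the brightest gave 23 to 52 depending on the array, and the median of all 66 was 1.89 to 3.91. The spiked bacterial poly-A controls averaged log2 8.99 and 8.72 on the UCZ arrays, 8.37 and 8.06 on the control arrays, and 8.35 and 7.82 on the GA3 arrays. With arrays scaled to these controls, the median change over all probe sets was −0.67 for UCZ versus control (−0.03 as deposited), 0.78 for GA3 versus UCZ (0.014) and 0.13 for GA3 versus control (−0.003). That fit used 1 variance trend shared fully by all probe sets, so its p-values lean on the whole table. Changes that involve UCZ are therefore relative to the deposited scaling.

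The hormone synthase an1 was moderately expressed and nearly level between control and GA3. Its control signals were 459.8 and 513 (replicates 1 and 2), its GA3 signals 458.5 and 499.5, and its UCZ signals 360.3 and 378.5. Both UCZ arrays were below all control and GA3 arrays, which overlapped each other. On these arrays 63.5% to 70.5% of probe sets were dimmer than an1. The group means were 486.4 ± 37.6 in control, 479 ± 28.9 in GA3 and 369.4 ± 12.9 in UCZ (SD, n = 2).

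In GA3 versus control the log2 change of an1 was −0.02 (95% interval −0.32 to 0.28, limma adjusted p = 0.986). In UCZ versus control it was −0.38 (interval −0.68 to −0.08, SE 0.129) and missed the threshold (limma adjusted p = 0.125), but it passed with the replicate number as a block (limma adjusted p = 0.041). The 2 replicates gave −0.34 and −0.42. Under poly-A control scaling the change was −1.02 (limma adjusted p = 0.0065), and under median centring and quantile normalization it was −0.27 and −0.29 without passing. Against UCZ, an1 was higher in GA3 by 0.36 (interval 0.06 to 0.66) in all 4 array pairs and did not pass (limma adjusted p = 0.161, or 0.057 with the block), against 1.13 (limma adjusted p = 0.002) under poly-A control scaling.

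The P450 gene d3 was dim. Its control signals were 75.2 and 97.5, its GA3 signals 98.2 and 123.5, and its UCZ signals 72 and 82.3. Both GA3 arrays were above all others, though GA3 replicate 1 barely exceeded control replicate 2, and control and UCZ overlapped. In each group replicate 2 was the higher, by log2 differences of 0.32, 0.29 and 0.16 in control, GA3 and UCZ, whereas the median probe set moved by −0.02 or −0.03. The means were 86.4 ± 15.8, 110.8 ± 17.8 and 77.2 ± 7.33 in control, GA3 and UCZ (SD, n = 2), and on every array 1 of the 66 reporters was as bright.

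No comparison of d3 passed. The log2 change was 0.31 in GA3 versus control (interval −0.18 to 0.80, limma adjusted p = 0.721), −0.13 in UCZ versus control (interval −0.62 to 0.36, limma adjusted p = 0.77) and 0.44 in GA3 versus UCZ (interval −0.05 to 0.93, limma adjusted p = 0.282). The intervals leave room for rises up to 0.80 and 0.93. Within the replicates the first was 0.32 and 0.30 and the third 0.38 and 0.50. The block brought none of these under the threshold (limma adjusted p = 0.444, 0.674 and 0.131), and poly-A control scaling gave 1.21 for GA3 versus UCZ (limma adjusted p = 0.004).

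CPPS2, the synthase of the defence route, was lower after both treatments. Its control signals were 332.4 and 295.8, its GA3 signals 27.1 and 32.4, and its UCZ signals 86.8 and 75.7. No 2 groups overlapped: control was highest, UCZ intermediate and GA3 lowest. In rank this took the gene from brighter than 58% to 60.7% of probe sets in control to brighter than 25.2% to 27.3% in GA3 and 36.1% to 38% in UCZ. The means were 314.1 ± 25.9, 29.7 ± 3.76 and 81.2 ± 7.85 in control, GA3 and UCZ (SD, n = 2).

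The log2 change in GA3 versus control was −2.85 (SE 0.182, interval −3.28 to −2.42, limma adjusted p = 0.0017), a fall of 7.22-fold on that scale and 10.6-fold between the mean signals. It ranked 9 of 17621 from the lowest change. In the GA3 arrays CPPS2 was near the upper end of the reporters, with 3 and 1 of 66 as bright in replicates 1 and 2. UCZ versus control gave −1.76 (SE 0.182, interval −2.19 to −1.34, limma adjusted p = 0.0036), a 3.40-fold fall that was −1.76 and −1.77 within the replicates. Both calls held in the fits that left out 1 array (highest limma adjusted p = 0.04 and 0.047) and under each scaling. These comparisons share the control arrays.

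CPPS2 was also lower in GA3 than in UCZ, by −1.09 (SE 0.182, interval −1.52 to −0.66, limma adjusted p = 0.017; 0 of 4 array pairs higher). The fits without GA3 replicate 1 or 2 gave limma adjusted p = 0.094 and 0.072, and those without UCZ replicate 1 or 2 gave 0.102 and 0.086. Under poly-A control scaling the difference was −0.32 (limma adjusted p = 0.394), whereas median centring and quantile normalization gave −1.17 and −1.12 (limma adjusted p = 0.013 and 0.017). The order of GA3 below UCZ was the same under each of these scalings. In bulk tissue, fewer cells that express a gene and less transcript per cell cannot be told apart.

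Read against the whole table, 1 of the 3 genes was called in each comparison, always CPPS2 and always lower. The background was 0.891% of probe sets called in GA3 versus control (0.624% lower), 8.09% in UCZ versus control (5.02% lower) and 6.87% in GA3 versus UCZ (2.97% lower). With the replicate block it was 3.82%, 19% and 16.1%, and CPPS2 was joined by an1 in UCZ versus control. Groups did not overlap for d3 and CPPS2 in GA3 versus control, for an1 and CPPS2 in UCZ versus control and for all 3 genes in GA3 versus UCZ, against 38.3%, 52.6% and 50.1% of all probe sets. Of the calls in UCZ versus control 38.0% were higher, a share of 57.6% after median centring, 46.3% after quantile normalization and 0.542% when scaled to the poly-A controls. For GA3 versus UCZ the shares were 56.8%, 43.0%, 51.9% and 99.7% in the same order.

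**Figure D2:**
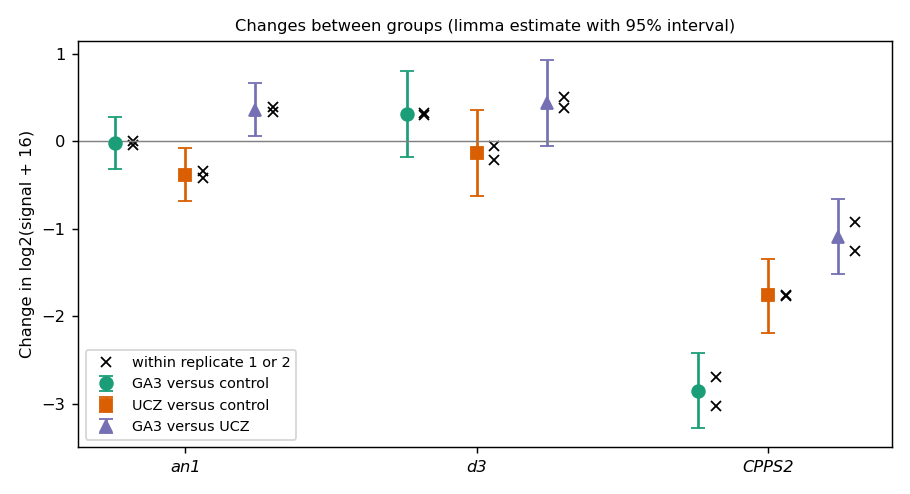
Change in log2(signal + 16) of an1, d3 and CPPS2 in the 3 comparisons, as limma estimates with 95% intervals, with crosses for the difference within replicate 1 and within replicate 2. The 3 intervals of CPPS2 lie below 0, whereas those of d3 include 0.

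The contrast between the routes was read within each array, as the log2 value of CPPS2 minus that of an1 or d3, which a scaling of whole arrays does not move. Against an1 this difference was −0.45 and −0.76 on the control arrays, −3.46 and −3.41 on the GA3 arrays, and −1.87 and −2.11 on the UCZ arrays. Against d3 it was 1.93 and 1.46 on the control arrays, −1.41 and −1.53 on the GA3 arrays, and 0.22 and −0.10 on the UCZ arrays. For both partners the 3 groups were fully apart, in the order control, UCZ, GA3, and only the changes carry meaning, since levels of different probe sets are not comparable.

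Relative to an1, CPPS2 changed by −2.83 in GA3 versus control, −1.38 in UCZ versus control and −1.45 in GA3 versus UCZ. Relative to d3 the values were −3.16, −1.63 and −1.53. Over the array pairs they ranged from −3.01 to −2.65, −1.66 to −1.11 and −1.59 to −1.31 for an1, and from −3.46 to −2.86, −2.04 to −1.23 and −1.75 to −1.31 for d3. All 6 gave p = 0.333 in a two-sided exact permutation test over arrays, which is the smallest value that 2 against 2 arrays allow. Hence GA3 and UCZ, an added hormone and an inhibitor of its synthesis, both went with less CPPS2 relative to an1 and d3, and the test of these single values cannot pass 0.05.

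The likeness of other genes was measured by Pearson correlation of log2 values over the 6 arrays, among the 10573 probe sets with the highest means. These points share replicates and treatments, so the coefficients are descriptions. The genes named below were picked by these coefficients, so their shared order of groups and the tests that follow it are no separate evidence. The probe sets of d3 (mean log2 6.73) and CPPS2 (6.83) themselves lie just below the lowest mean of that set, 6.96. For CPPS2, 60 probe sets (0.567%) reached 0.95, for an1 209 (1.98%) and for d3 35 (0.331%).

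The named probe set closest to CPPS2 was pr5, a thaumatin-like pathogenesis-related protein (r = 0.998), with control signals of 2050 and 1731, GA3 signals of 277 and 339, and UCZ signals of 594.2 and 555.8. Next came chn1, a chitinase (r = 0.991), with means of 4070, 1802 and 2271 in control, GA3 and UCZ, then nthr3 and apr (both r = 0.977) and pdrp1, the regulator of pyruvate phosphate dikinase (r = 0.970). Each of these 5 had the order control, UCZ, GA3 in its means, as the choice by correlation with CPPS2 favours.

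The size of the fall differed within this set. In GA3 versus control the log2 change was −2.56 for pr5, −1.17 for chn1, −1.19 for nthr3 and −1.10 for apr (limma adjusted p = 0.0014, 0.005, 0.029 and 0.017), and −0.59 for pdrp1, which did not pass. In UCZ versus control pr5, chn1 and apr passed with −1.69, −0.84 and −0.71 (limma adjusted p = 0.002, 0.0069 and 0.026). Both calls of pr5 held in each fit that left out 1 array. Between GA3 and UCZ only pr5 of these 5 passed (log2 −0.87, limma adjusted p = 0.018), and it did not in any fit without 1 array (0.054 to 0.097) or under poly-A control scaling (−0.10). Those of nthr3 and apr were lost in all such fits, and those of chn1 in 3 of 4 for GA3 and in 4 of 4 for UCZ. Under poly-A control scaling the GA3 changes of chn1, nthr3 and apr were −1.04, −1.06 and −0.97, close to those above, and did not pass (limma adjusted p = 0.19, 0.14 and 0.14).

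For an1 the closest named probe sets were met2 (r = 0.994), gsh1 (0.991), which encodes the first enzyme of glutathione synthesis, gl1 (0.986), a gene of leaf surface wax, dmt101 (0.986), a DNA methyltransferase, and mpk6 (0.985), a MAP kinase. All 5, picked for likeness to an1, were like it lower in UCZ than in the other groups. The largest change was that of gl1, from 581.9 in control to 202.2 in UCZ (log2 −1.47, limma adjusted p = 0.011, from 0.034 to 0.087 in fits without 1 array). The other 4 had changes from −0.46 to −0.54 in UCZ versus control and did not pass. Under poly-A control scaling these 4 had changes from −1.10 to −1.18 and passed (limma adjusted p from 0.0016 to 0.0032).

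For d3 the closest were PLD1 (r = 0.968), a phospholipase D, rps21b (0.963), a ribosomal protein, hda101 (0.956), a histone deacetylase, pdi5 (0.952), a protein disulfide isomerase, and HRGP (0.945), a hydroxyproline-rich wall glycoprotein. None of them passed in any comparison on the deposited scaling without the replicate block. HRGP passed in GA3 versus UCZ with quantile normalization (log2 1.24, limma adjusted p = 0.046). Under poly-A control scaling each of them passed in GA3 versus UCZ (log2 1.01 to 1.98, limma adjusted p from 3.1e-07 to 0.0058). All but PLD1 then passed in UCZ versus control too (log2 −0.77 to −1.34, limma adjusted p from 0.0011 to 0.042). Like d3, by which they were picked, PLD1, rps21b, hda101, pdi5 and HRGP were highest in GA3 and higher in replicate 2 than in replicate 1 of each group. HRGP had the widest range, from 1241 and 1854 in UCZ to 2750 and 4520 in GA3.

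**Figure D3:**
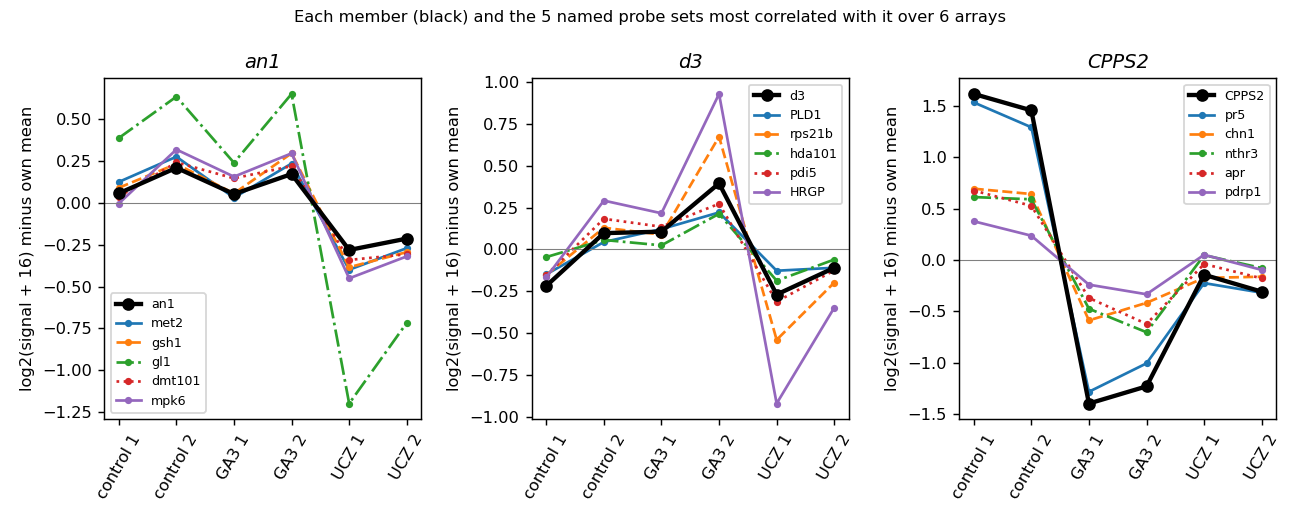
Profile over the 6 arrays of an1, d3 and CPPS2 (black) and of the 5 named probe sets most correlated with each, as log2(signal + 16) minus the probe set's own mean. The genes beside CPPS2 step down from control to UCZ and GA3, those beside an1 step down in UCZ only, and those beside d3 are higher in replicate 2.

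Other genes of the gibberellin route were few among the named probe sets. The list held 5 genes, an1, d3, CPPS2, eks1 and LOC778427, which has the synonym GA20 and no description in the table. It thus counts CPPS2, the synthase of the defence route. No named gene matched the list of gibberellin perception and signalling. In GA3 versus control 1 of the 5 was lower (CPPS2) and none higher, in UCZ versus control 1 was lower (CPPS2) and 1 higher (GA20), and in GA3 versus UCZ 1 was lower (CPPS2). On the deposited scaling without the replicate block an1, d3 and eks1 were not called in any comparison. The medians of the list were 0.07, −0.32 and 0.36, against −0.003, −0.03 and 0.014 over all probe sets. Of all probe sets 0.891%, 8.09% and 6.87% were called in the same order. Poly-A control scaling gave 3 lower and 1 higher in UCZ versus control (median −0.96). In GA3 versus UCZ it gave 3 higher (an1, d3 and eks1) and 1 lower, GA20 in place of CPPS2 (median 1.13). Of all 17621 probe sets it called 5690 lower in UCZ versus control and 8775 higher in GA3 versus UCZ. The medians over all probe sets were then −0.67 and 0.78. Median centring added GA20 as a second lower gene in GA3 versus UCZ (2 lower).

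GA20 was higher in UCZ than in control. Its control signals were 7.48 and 17.9, its GA3 signals 14.8 and 71.7, and its UCZ signals 162.2 and 252.7. The control arrays lay among the reporters, with 17 and 3 of 66 as bright, while in UCZ 1 was. The log2 change in UCZ versus control was 2.96 (SE 0.486, limma adjusted p = 0.015). With control at the level of probe sets for foreign genes, this size depends on the number added and is no measured fold. It was 2.31 under poly-A control scaling, and it did not pass in the fits without 1 array (limma adjusted p from 0.061 to 0.10). In GA3 versus UCZ the change of −2.07 missed the threshold (limma adjusted p = 0.051; 0.0012 with the block), and passed without 1 array in 1 of 4 fits. The gene eks1, whose synonyms KS and KS2.1 name a kaurene synthase and whose synonym tps1 names a terpene synthase, was dim, at means of 18.8, 21 and 12.3 in control, GA3 and UCZ, and 2 to 14 of the 66 reporters were as bright.

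The list of precursor supply held 5 genes, of which fps belongs to another branch. The genes dxs1, dxr and Hds1 encode enzymes of the plastid methylerythritol phosphate pathway, fps encodes the farnesyl diphosphate synthase that leads to sesquiterpenes and sterols, and IPP is listed by symbol. Over all probe sets 0.891%, 8.09% and 6.87% were called in GA3 versus control, UCZ versus control and GA3 versus UCZ. In GA3 versus control none of the 5 genes was called, with a median of −0.28. In UCZ versus control 1 was lower, fps, from 549.4 to 371.1 (log2 −0.55, limma adjusted p = 0.032), a change of −0.44 with median centring and −0.46 with quantile normalization, which did not pass (0.058 and 0.054), and of −1.19 under poly-A control scaling, which did (limma adjusted p = 0.0013). It did not pass in any fit without 1 array (0.13 to 0.15).

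In GA3 versus UCZ fps was higher, at 780.2 and 766.8 against 365 and 377.2 (log2 1.03, SE 0.112, limma adjusted p = 0.0055), which held in each fit without 1 array and under each scaling. The enzyme gene dxr was lower in GA3, at 886 against 1297 (log2 −0.54, limma adjusted p = 0.036; 0.13 to 0.17 without 1 array). For Hds1 and dxs1 the changes were −0.63 and −0.44 (limma adjusted p = 0.054 and 0.09; 0.014 and 0.017 with the block). Under poly-A control scaling these 3 changes turned to 0.23 for dxr, 0.14 for Hds1 and 0.33 for dxs1, none of which passed, and all 5 genes of the list were above 0. With the block fps was higher in GA3 than in control (log2 0.48, limma adjusted p = 0.04; 0.15 without the block).

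Defence genes outside the diterpenoids were of 2 kinds. The list of terpene and benzoxazinoid genes had 9 members, of which 1 was lower and none higher in GA3 versus control, 2 lower and 2 higher in UCZ versus control, and 1 lower and 2 higher in GA3 versus UCZ. The medians were 0.14, −0.05 and −0.06, against −0.003, −0.03 and 0.014 over all probe sets. Of all probe sets 0.891%, 8.09% and 6.87% were called in the same order. Poly-A control scaling gave 4 lower and none higher in UCZ versus control (median −0.69). In GA3 versus UCZ it gave 4 higher and none lower (median 0.71). Of all 17621 probe sets it called 5690 lower in UCZ versus control and 8775 higher in GA3 versus UCZ. The medians over all probe sets were then −0.67 and 0.78. The member that went with CPPS2 was tps6, which encodes the macrocarpene synthase of the zealexins, sesquiterpenoid phytoalexins of maize.

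Control arrays had tps6 signals of 1062 and 1502, GA3 arrays 1.55 and 5.78, and UCZ arrays 21.2 and 20. In GA3 37 and 19 of the 66 reporters were as bright, so that the gene was at the level of probe sets for foreign genes there. The log2 changes were −6.03 in GA3 versus control and −5.13 in UCZ versus control (SE 0.23; limma adjusted p = 0.00045 and 0.00026), values that depend on the number added. Both held in each fit without 1 array and under each scaling. GA3 versus UCZ gave −0.90 (limma adjusted p = 0.066; 0.016 with the block).

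The benzoxazinoid genes did not follow CPPS2. The gene bx1, which commits indole to these compounds, rose in UCZ versus control from 2028 to 3488 (log2 0.78, limma adjusted p = 0.011) and bx6 rose by 0.51 (limma adjusted p = 0.045). Relative to UCZ, bx1 was lower in GA3 (log2 −0.60, limma adjusted p = 0.027). These 3 calls were lost in each fit without 1 array, and poly-A control scaling gave 0.14 for bx1 and −0.13 for bx6 in UCZ versus control and turned bx1 to 0.17 in GA3 versus UCZ. In GA3 versus control bx1 and bx6 had changes of 0.18 and 0.12 that did not pass. The volatile indole gene igl1 was higher in GA3 than in UCZ by 1.08 (limma adjusted p = 0.019) and the terpene synthase gene TPS4, at means of 27.9 and 6.36, by 0.97 (limma adjusted p = 0.025). Neither passed in a fit without 1 array.

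Of 9 genes of pathogenesis-related and other defence proteins, 3 were lower in GA3 versus control (pr5, prp4 and chn1) and none higher, with a median of 0.14. In UCZ versus control 4 were lower (prp4, pr5, wip1 and chn1) and 1 higher (prp2), with a median of −0.54. Under poly-A control scaling 6 were lower and none higher there (median −1.18). Of all 17621 probe sets 5690 were then called lower in UCZ versus control, with a median change of −0.67. Over all probe sets 0.624% were called lower in GA3 versus control and 5.02% in UCZ versus control, on the deposited scaling. The gene prp4, with the synonym PR-1, had control signals of 400.4 and 282.8, GA3 signals of 109 and 86.1, and UCZ signals of 63.6 and 53.3, so that its lowest group was UCZ and not GA3. The wound-induced protease inhibitor gene wip1 had means of 4176 in control and 4587 in GA3 and fell to 1443 in UCZ (log2 −1.52 against control, limma adjusted p = 0.0011). In GA3 versus UCZ wip1 and mir2, a cysteine protease, were higher (1.66 and 0.92, limma adjusted p = 0.0011 and 0.0079) and pr5 was lower. The call of wip1 held in each fit without 1 array, and that of mir2 did not. The call of prp4 in GA3 versus control was lost in each fit without 1 array (limma adjusted p from 0.083 to 0.20), and prp2, with 0.90 in UCZ versus control, was called in 1 of 4 such fits and had 0.26 under poly-A control scaling. The members of the list were thus not uniform, and some were chosen with their values already known.

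Next to d3, the P450 list held only hpl1, a hydroperoxide lyase of leaf volatile synthesis. Its signal means were 558.3, 429.9 and 361.8 in control, GA3 and UCZ. In UCZ versus control its change was −0.62 (limma adjusted p = 0.072; 0.012 with the block).

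Leaf photosynthesis genes served as markers of another tissue. All 14 measured had changes below 0 in GA3 versus control (median log2 −0.33), of which 2 were called (me3 and pdk1; me3 also in UCZ versus control, at −1.30), 1 with median centring and 0 under poly-A control scaling (median −0.20). Their signals summed to 65230 and 70372 on the GA3 arrays, 85263 and 87602 on the control arrays, and 85642 and 91504 on the UCZ arrays. In UCZ versus control the summed signals of this list overlapped between the groups, and its median log2 change was 0.05. Under poly-A control scaling that median was −0.59, with all 14 below 0 and 2 called lower. Of all 17621 probe sets that scaling called 5690 lower in UCZ versus control, with a median change of −0.67. On the deposited scaling 0.891% of all probe sets were called in GA3 versus control and 8.09% in UCZ versus control. The part of leaf-type RNA in the changes of CPPS2 and the other genes was not tested.

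**Figure D4:**
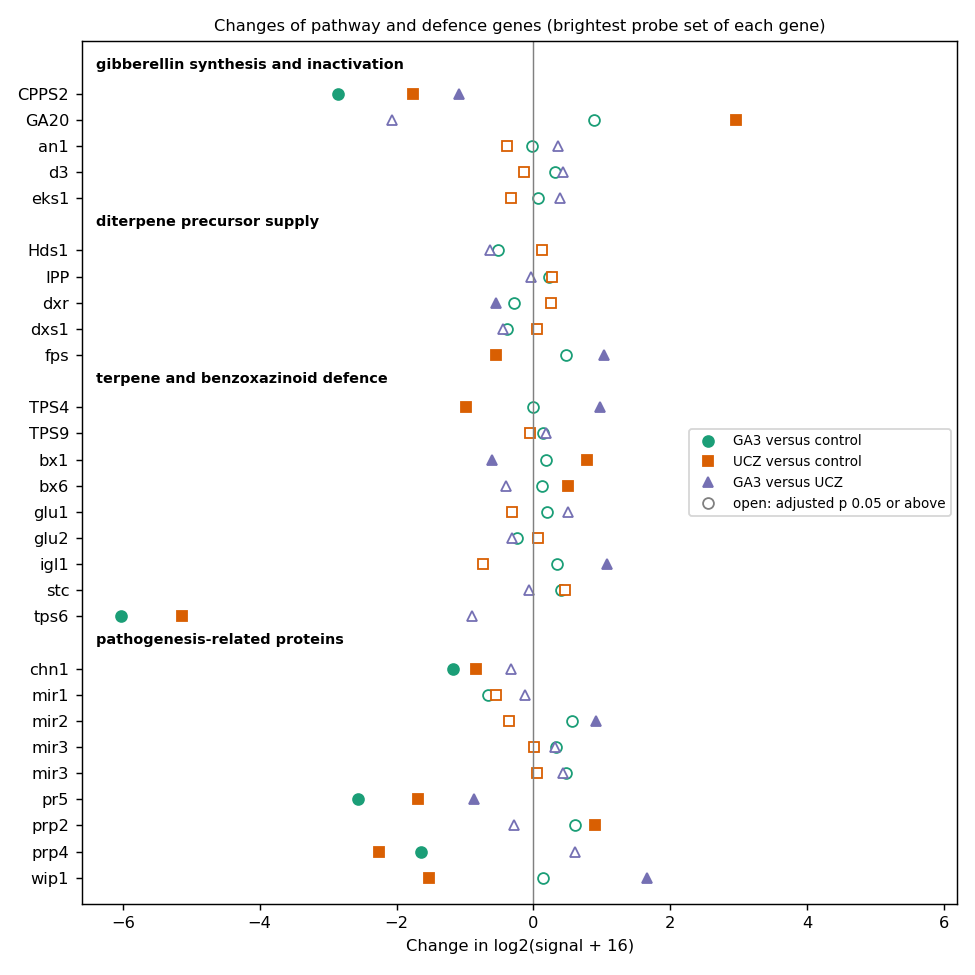
Change in log2(signal + 16) in the 3 comparisons for genes of gibberellin synthesis, precursor supply, terpene and benzoxazinoid defence, and pathogenesis-related proteins, with the brightest probe set of each gene. Filled symbols have a limma adjusted p under 0.05. CPPS2, tps6, pr5, prp4 and chn1 have filled symbols left of 0 for GA3 and UCZ versus control, and an1, d3 and eks1 have open symbols near 0.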

How the data were processed

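Signal intensities on a linear scale, 1 per probe set and array, were deposited by the authors and made with GCOS and MAS5, per the submitters' processing notes, which as given here name no version. Of 17734 probe sets, 113 manufacturer controls were left out. Genes were named through the platform annotation and the maize RefSeq gene table, from which only names were taken. No intensity filter was applied, 16 was added before log2, and limma 3.58.1 in R 4.3.3 (lmFit, eBayes with trend; 3 residual and 4.06 prior degrees of freedom) was fitted to all 6 arrays, with two-sided tests adjusted over all 17621 probe sets. Exact permutation tests used scipy 1.17.1. The fit was tested on simulated data.

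Replicate numbers 1 and 2 were taken to pair the arrays because the series describes a pair of independent experiments; deviations from group means correlated at 0.664, 0.724 and 0.755 between groups. The fit with this block was an alternative. The named genes were, by rule, the members, the 5 characterized named probe sets most correlated with each, all genes of the gibberellin and precursor lists, and the called genes with the largest changes of the other lists; unchanged members of these lists were named after their values were seen. Genes with several probe sets were counted by the brightest. List patterns that caught wrong genes were corrected, and GA20 was added, after names were seen. The members, lists and tests were chosen with earlier results of these data known. Other alternatives were the number added, scaling, the filter, the variance prior, the groups fitted and each array left out.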

Additional observations from a re-analysis of the deposited data

How the results depend on the processing

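Of 120 changes of the 3 genes recomputed under an alternative, 107 kept their direction and side of the threshold. All 36 recomputed contrasts kept their direction, without a test that can pass. Where an array was left out this was fixed in advance, since all array pairs of a contrast had the same sign. Of 42 recomputed counts of called probe sets, 24 were within 1.5 times the count reported. With the replicate block the counts rose from 157 to 673 in GA3 versus control, from 1425 to 3342 in UCZ versus control and from 1210 to 2830 in GA3 versus UCZ, and an1 in UCZ versus control passed (−0.38); the block changed no other call of the 3 genes. Poly-A control scaling gave counts of 5721 in UCZ versus control and 8805 in GA3 versus UCZ. It made an1 pass at −1.02 in UCZ versus control and at 1.13 in GA3 versus UCZ, made d3 pass at 1.21 and CPPS2 miss at −0.32 in GA3 versus UCZ, and turned an1 in GA3 versus control to 0.11. Fitting only the groups compared gave 768 in GA3 versus UCZ. The causes of these shifts were not tested.

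Leaving out 1 array gave 15 to 32 calls in GA3 versus control, 209 to 351 in UCZ versus control and 220 to 251 in GA3 versus UCZ, with fewer arrays in each fit. For an1 the changes then ranged from −0.10 to 0.06 in GA3 versus control (0.06 without control replicate 2 and 0.04 without GA3 replicate 1), from −0.46 to −0.30 in UCZ versus control and from 0.30 to 0.42 in GA3 versus UCZ. For d3 the ranges were 0.15 to 0.47, −0.29 to 0.03 (0.03 without control replicate 2) and 0.30 to 0.58, and for CPPS2 −2.94 to −2.77, −1.85 to −1.68 and −1.17 to −1.0. The change of CPPS2 relative to an1 ranged from −2.99 to −2.67, −1.54 to −1.23 and −1.57 to −1.33, and that relative to d3 from −3.40 to −2.92, −1.87 to −1.40 and −1.69 to −1.37. Adding 1 or 64 in place of 16 moved the fall of CPPS2 in GA3 versus control to −3.36 or −2.01. Its change relative to an1 in that comparison moved to −3.34 or −1.99. Under the filter that keeps the brightest 60%, d3 and CPPS2 have no value. Dim signals, those of CPPS2 in GA3, tps6 and GA20 among them, are limited by background.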

Other observations

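The carotenoid and abscisic acid list, a branch that draws on the same precursor as an1 and CPPS2, held 8 genes, among them vp1, a transcription factor of abscisic acid response. In GA3 versus UCZ all 8 were lower in GA3, with a median log2 change of −0.42, against 0.014 over all probe sets. None was called, and 4 were lower with the replicate block, which called 16.1% of all probe sets in that comparison. Under poly-A control scaling 7 of 8 were above 0 and the median was 0.35, against 0.78 over all probe sets. The called member was BCH2, with the synonym crtRB1, a carotene hydroxylase, which rose from 2252 in control to 3652 in UCZ (log2 0.70, limma adjusted p = 0.035, from 0.072 to 0.17 without 1 array; 0.06 under poly-A control scaling). Over all probe sets 8.09% were called in UCZ versus control on the deposited scaling. The desaturase genes pds1 and vp9 had changes of 0.23 and 0.08 in UCZ versus control, and vp14, the cleavage enzyme of abscisic acid synthesis, had −0.14, none of which passed.

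Other-tissue lists beside leaf had few calls on the deposited scaling. Of 19 kernel genes, none was called in GA3 versus control and 1 was higher in UCZ versus control. Of 20 reproductive genes none was called in either. In GA3 versus UCZ 2 kernel genes were higher and 1 lower, and 2 reproductive genes were higher. Of all probe sets 0.891%, 8.09% and 6.87% were called in the 3 comparisons in this order. Under poly-A control scaling 5 kernel and 5 reproductive genes were lower and 1 kernel gene higher in UCZ versus control. In GA3 versus UCZ 9 kernel and 10 reproductive genes were then higher and 1 kernel gene lower. Of all 17621 probe sets that scaling called 5690 lower and 31 higher in UCZ versus control. In GA3 versus UCZ it called 8775 higher and 30 lower. The medians over all probe sets were −0.67 and 0.78 in these comparisons. They were −0.66 and 0.92 for the kernel list and −0.68 and 0.85 for the reproductive list. These calls thus came with a shift of the whole table. Kernel signals summed to 5046 and 4864 on the control arrays, 5065 and 5907 on the GA3 arrays, and 4137 and 4537 on the UCZ arrays. The root gene pht1 had changes of −0.29 and −0.19 in GA3 and UCZ versus control, which did not pass. Under poly-A control scaling its change in UCZ versus control was −0.83 and passed.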
